A study of Mus musculus with 48 samples.

Results

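The genes described here encode 9 families of zinc finger transcription factors: KLF, SP, EGR, GLI, GLIS, ZIC, SALL, IKZF and the blood-associated GATA factors Gata1, Gata2 and Gata3. They were chosen by symbol alone, and 53 of the 24466 gene symbols in the deposited H3K27me3 table matched: 17 KLF, 9 SP, 4 EGR, 3 GLI, 3 GLIS, 5 ZIC, 4 SALL, 5 IKZF and 3 GATA genes. The mark was measured by chromatin immunoprecipitation and sequencing (ChIP-seq) in mouse cells of 3 kinds. Definitive endoderm, the embryonic layer that gives rise to liver and pancreas, was sorted by the ENDM1 surface antigen at stage E8.25. Embryos came from B6C3F1 females crossed to C3H, Pdx1-eGFP or Ins-RFP males, per the labels' protocols. Hepatocytes came from adults of 8 weeks, whose strain and number the sources used here do not state. Mature beta cells were sorted at 8 weeks by the red fluorescence of an insulin reporter, so that only cells with an active reporter entered. By their labels the groups carry no other mutation and no treatment. Each cell type had 2 ChIP libraries and 2 input libraries, and the table holds 1 pooled value per cell type, so no value has a replicate error and no difference could be tested. How many embryos or animals went into a library is likewise not stated.

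H3K27me3 is written by Polycomb repressive complex 2 and is typical of silent developmental regulators whose promoters are rich in CpG dinucleotides. Genes for transcription factors that pattern the embryo often keep the mark in lineages that never use them, while genes used in every cell usually lack it. KLF and SP proteins bind GC boxes and CACCC boxes in promoters. EGR proteins are induced within minutes of a stimulus, GLI proteins carry out hedgehog signalling, and ZIC and SALL proteins act in neural, limb and organ patterning. IKZF proteins and the first GATA factors act above all in blood lineages.

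The values are ratios of H3K27me3 to input that the authors quantile-normalized across the cell types. Every column has the same distribution, with a median of 0.711 and an upper quartile of 1.27, so ratios rank the genes of a cell type against each other and carry no information on its total amount of the mark. A gene is called marked below when it was at or above the 75th percentile of all genes in a cell type. Differences are given on the scale of log2(ratio + 0.0711), where the pseudocount of 0.0711 was set from the median ratio and shrinks the differences of low genes. Genes 1 or more apart on that scale, or 2-fold, were called higher or lower, and calls under 1.5 in size end by definition at a stricter threshold of 1.5. The columns were checked against marker genes. Of 10 hepatocyte markers, 0 were marked in hepatocytes and 6 in beta cells, and of 11 beta cell markers 9 were marked in hepatocytes and 1 in beta cells. Of 10 definitive endoderm markers, 6 were marked in endoderm itself, beside 25.7% of all genes, 4 in hepatocytes and 6 in beta cells. Unlike the adult markers in their own cell types, these genes were thus mostly marked in their own column. The check therefore does not bear out the endoderm column, on which every comparison with endoderm rests. Where 3 ratios follow a gene below without further words, they are for endoderm, hepatocytes and beta cells in that order. Markers of blood and immune cells had median ratios of 1.13 in endoderm against 1.14 in hepatocytes and 1.19 in beta cells.

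Promoter sequences of 4 SP genes are shown because marked and unmarked members lie close together on the chromosome. Sp4 and Sp8 are neighbours, Sp3 and Sp9 are separated by 1 gene, and in both pairs the first gene was unmarked and the second marked in all 3 cell types. The 200 bases upstream of the annotated start are given 5′ to 3′ from RefSeq, build GRCm38.p6, with every CG dinucleotide in capitals. The coordinates belong to that build and not to mm9, the build of the deposited values.
Sp3 (chr2:72979282-72979481, minus strand): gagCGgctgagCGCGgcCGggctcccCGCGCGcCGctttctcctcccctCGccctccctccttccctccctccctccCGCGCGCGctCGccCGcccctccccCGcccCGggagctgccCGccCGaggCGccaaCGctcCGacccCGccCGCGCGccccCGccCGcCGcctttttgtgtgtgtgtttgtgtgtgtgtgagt
Sp9 (chr2:73271726-73271925, plus strand): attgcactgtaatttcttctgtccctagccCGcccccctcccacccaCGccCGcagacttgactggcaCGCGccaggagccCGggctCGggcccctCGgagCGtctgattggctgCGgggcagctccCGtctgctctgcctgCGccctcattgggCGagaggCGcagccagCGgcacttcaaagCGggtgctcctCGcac
Sp4 (chr12:118301441-118301640, minus strand): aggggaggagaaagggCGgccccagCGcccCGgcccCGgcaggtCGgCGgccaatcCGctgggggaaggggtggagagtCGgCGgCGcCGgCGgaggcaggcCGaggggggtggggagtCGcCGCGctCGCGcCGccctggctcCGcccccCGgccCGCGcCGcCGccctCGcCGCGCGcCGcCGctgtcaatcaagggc
Sp8 (chr12:118847033-118847232, plus strand): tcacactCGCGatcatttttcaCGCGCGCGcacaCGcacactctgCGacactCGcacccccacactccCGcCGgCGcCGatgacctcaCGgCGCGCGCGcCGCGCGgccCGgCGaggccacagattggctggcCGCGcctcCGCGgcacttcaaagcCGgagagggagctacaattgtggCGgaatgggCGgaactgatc
In the 300-base window around the start, from 250 bases before it to 50 after, Sp3 and Sp4 each held 42 CG dinucleotides, and the marked Sp9 and Sp8 held 25 and 32. The median over 17410 genes with a window was 15, so all 4 windows held more than the median. In these windows the unmarked genes held more than the marked ones, but that order depended on the stretch and the genes. In the 200 bases printed, the marked Sp8 held 30 and the unmarked Sp3 held 29. Of the other SP genes with a window, the unmarked Sp1 and Sp2 held 19 and 25, and the marked Sp5 held 6. The GC box, searched as GGGCGG on both strands, occurred 5 times each in the windows of Sp3 and Sp4 and 1 time each in those of Sp9 and Sp8. It was present in 48.4% of all windows, and a match is no proof of binding. The motif contains a CG, so both counts share letters. For genes with several annotated starts, the window with the most CG dinucleotides was used. A window was found for 36 of the 53 genes, too few for a comparison of CpG content over the families, which would be void.

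Most of these factors fell into 2 classes, either marked in every cell type or in none. Of the 53 genes, 20 were marked in all 3 cell types, or 37.7%, against 8.66% of all genes. Another 22 were marked in none, or 41.5%, against 56.0% of all genes. Of the others, 7 were marked in 2 cell types and 4 in 1. By cell type, the marked genes numbered 26 for endoderm, 27 for hepatocytes and 25 for beta cells, where the same threshold held for 25.7%, 25% and 25% of all genes. The classes followed the families in part: the 4 ZIC genes described below, 5 of 9 SP genes and 3 of 4 EGR genes were marked throughout, as were 2 of 17 KLF genes, the latter a share (11.8%) near that of all genes.

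**Figure D1:**
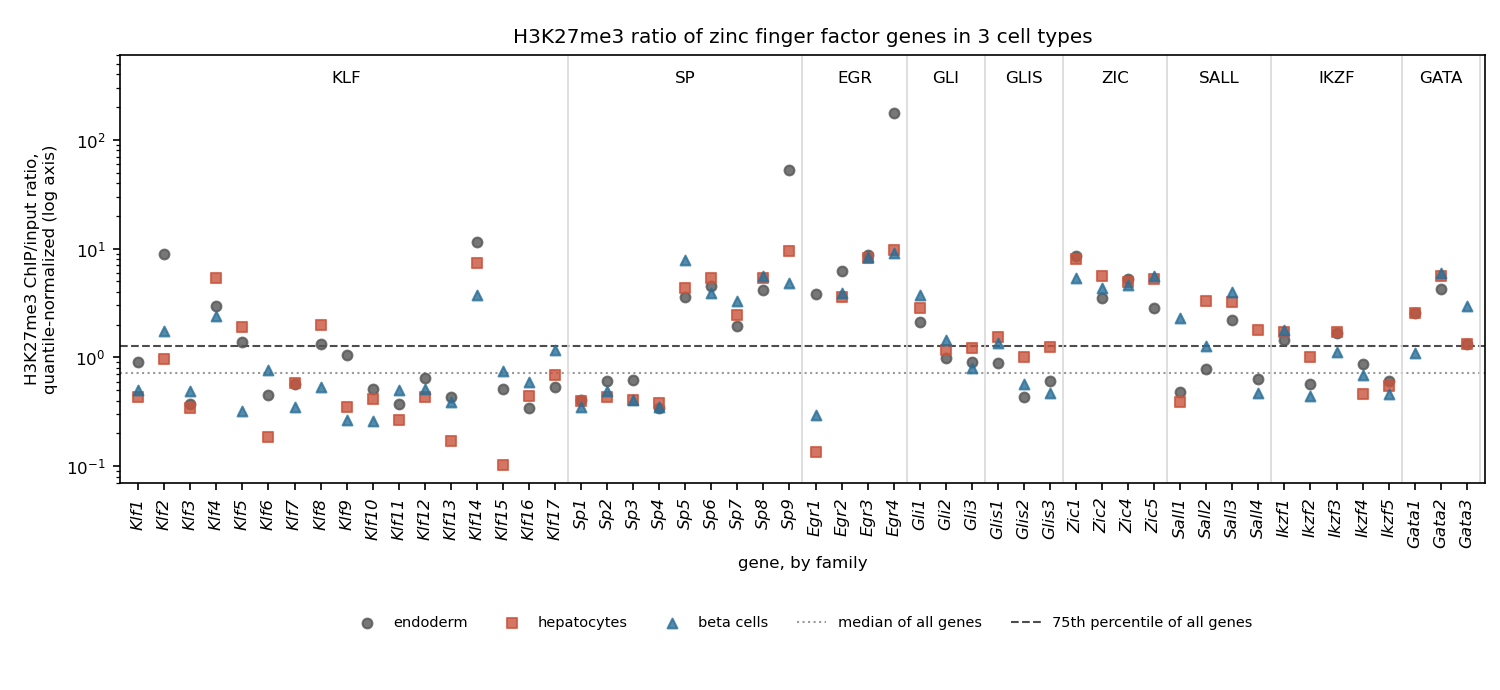
The quantile-normalized H3K27me3 ratio (log axis) is plotted for each gene described, grouped by family, with 1 point per cell type and no error bars because values are pooled. Dotted and dashed lines mark the median of all genes (0.711) and the 75th percentile (1.27). The 4 ZIC genes and Sp5 to Sp9 lie above the dashed line in every cell type, and Sp1 to Sp4 and most KLF genes lie below it.

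The SP family was split without overlap. Sp1 to Sp4, of which Sp1 and Sp3 are widely expressed activators and Sp4 is enriched in neurons, had ratios between 0.345 and 0.615 over all 3 cell types. Sp5 to Sp9 had ratios between 1.92 and 53.2. These are factors of restricted use: Sp5 is a target of WNT signalling in the early embryo, Sp6 acts in teeth and hair, Sp7 (osterix) is required for bone, and Sp8 and Sp9 act in limb buds and in neurons. Sp8 had ratios of 4.15 in endoderm against 5.40 in hepatocytes and 5.60 in beta cells. Sp6 had 4.56, 5.32 and 3.93, in the same order of cell types. Sp7 was the lowest of the marked group, with 1.92, 2.47 and 3.28.

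The split runs through neighbouring genes. In RefSeq, Sp1 lies next to Sp7, Sp2 next to Sp6 and Sp4 next to Sp8 among protein-coding genes of the table, and 1 gene, Ola1, separates Sp3 from Sp9. In each of the 4 pairs the first was unmarked and the second marked in all 3 cell types. Sp4 had ratios of 0.345, 0.382 and 0.351 in endoderm, hepatocytes and beta cells beside the values of Sp8 given above. The gene between Sp3 and Sp9 had 0.559, 0.558 and 0.506, each under 0.711, the overall median. The other pairs behaved otherwise. Both genes of the pairs Zic1 with Zic4 and Zic2 with Zic5 were marked throughout. Klf12 was unmarked in all 3 cell types, while its neighbour Klf5 was marked in endoderm and hepatocytes. Which region the authors measured for a gene is not stated in the sources used here, so values of neighbouring genes may share reads.

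**Figure D2:**
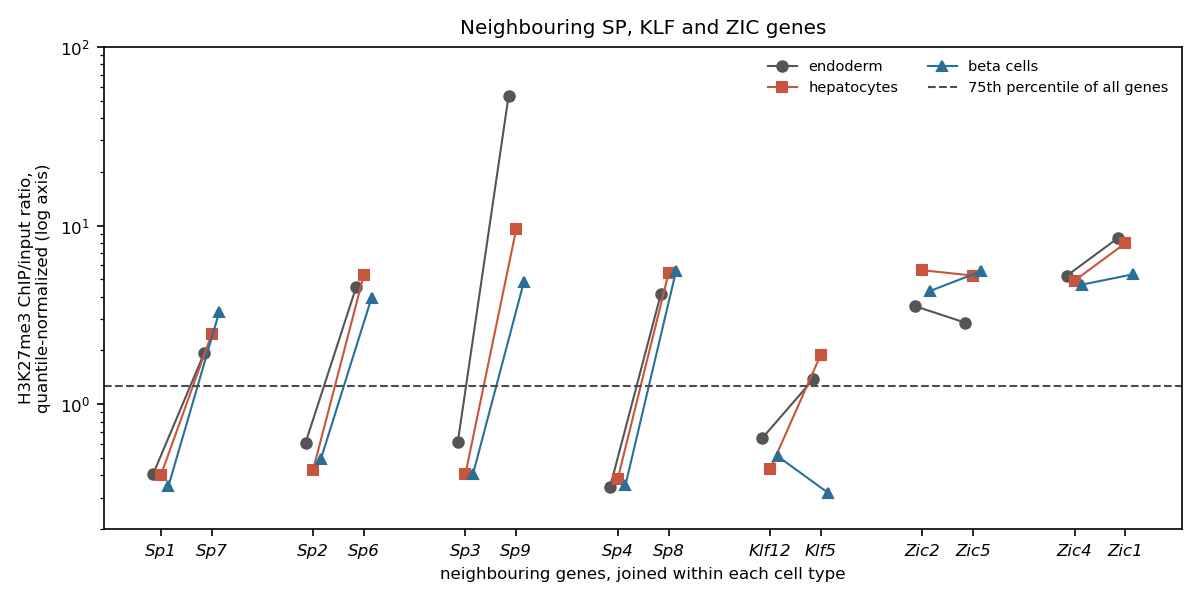
The H3K27me3 ratio (log axis) of 7 pairs of neighbouring genes is plotted, with a line joining the members of a pair within each cell type; the dashed line is the 75th percentile of all genes (1.27). In the 4 SP pairs every line crosses from below to above it, and in the ZIC pairs both ends lie above it.

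Within the marked SP genes, levels differed between cell types for Sp5 and Sp9. Sp5 was highest in beta cells, with ratios of 3.59 in endoderm against 4.32 in hepatocytes and 7.87 in beta cells, a log2 difference of 1.12 between beta cells and endoderm. Sp9 had 53.2, 9.55 and 4.83, and was thereby called lower in hepatocytes (-2.47) and in beta cells (-3.44) than in endoderm. Its rank among all genes hardly moved, from percentile 99.6 to 99.4 and 97.5. On ranks with a threshold of 25 percentile points neither gene was called, and with a pseudocount 10 times larger Sp5 fell just short (0.99). On ranks Sp5 could not be called higher, because its endoderm percentile of 95.9 leaves no room for such a rise.

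The 4 ZIC genes described here, Zic1, Zic2, Zic4 and Zic5, were marked in every cell type. ZIC proteins act in patterning of the neural tube and cerebellum. Zic1, a factor of dorsal neural tube, had ratios of 8.51 in endoderm against 7.98 in hepatocytes and 5.34 in beta cells. Zic4 had 5.25, 4.93 and 4.68, and Zic2 had 3.55, 5.63 and 4.30. Zic5 was lowest in endoderm, with 2.86, 5.25 and 5.54. All 4 stood between percentiles 94.0 and 99.2 in every cell type, and none reached a log2 difference of 1 in any comparison. After each column was divided by its most frequent value, Zic2 and Zic5 were called higher in hepatocytes than in endoderm, with differences of 1.11 and 1.32, and Zic5 in beta cells, with 1.37. That scaling moves the median difference of all genes by about as much as it moves these values, to 0.38 in either comparison with endoderm. The genes flanking the ZIC pairs were lower. Pcca, next to Zic2, had ratios of 0.546, 0.489 and 0.562, and Clybl, on the other side of that pair, had 0.665, 0.584 and 1.60. Tbc1d2b, next to Zic1, had 0.539, 0.425 and 0.740, and Plscr5, next to Zic4, had 0.272, 0.763 and 0.737. Of these 4 genes, Clybl reached the 75th percentile, in beta cells, and the other 3 in no cell type.

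EGR genes differed sharply within the family. Egr1, the immediate early factor induced by growth factors and stress, was marked in endoderm and among the least marked genes of both adult cell types. Its ratios were 3.81 in endoderm against 0.136 in hepatocytes and 0.293 in beta cells, at percentiles 96.3, 3.92 and 9.40. The log2 differences from endoderm were -4.23 and -3.41, and neither call ended under the larger pseudocount, ranks, division by the most frequent value or a threshold of 1.5. The other EGR genes stayed marked. Egr3, a factor of muscle spindles and lymphocytes, had 8.74, 8.21 and 8.44, a spread of at most 0.09 on the log2 scale. Egr2 (Krox20), a factor of hindbrain and of myelinating cells, had 6.24, 3.59 and 3.94. Egr4, known for its role in male fertility, had 176, 9.70 and 9.18. Like Sp9 it was called lower in both adult cell types (-4.17 and -4.25) from an upper-tail endoderm value, and its percentile was 99.8 in endoderm against 99.4 in hepatocytes and 99.3 in beta cells.

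Egr1 was compared with a list of 22 partners and immediate early genes. It holds the corepressors Nab1 and Nab2, the serum response factor Srf with its cofactors Elk1 and Elk4, and genes induced by the same stimuli. In hepatocytes 10 of 22 were lower and 1 higher than in endoderm, beside 13.3% and 12.8% of all genes, with a median difference of -0.79 against -0.03 over all genes. In beta cells 11 were lower and 1 higher, beside 15.1% and 14.1% of all genes, with a median of -1.03 against -0.01. Both comparisons share the endoderm values. Nab2, itself induced by EGR1, had ratios of 4.77 in endoderm against 0.167 in hepatocytes and 0.581 in beta cells, close in pattern to Egr1. Junb, a subunit of the AP-1 factor, had 3.12, 0.353 and 1.07, and Ier5 had 1.23, 0.0967 and 0.0928. Fos, another AP-1 subunit, had 4.01, 1.03 and 0.258.

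The list was not uniform. Nr4a3, an orphan nuclear receptor, had ratios of 3.83, 3.63 and 3.78 and Nr4a2 had 4.08, 5.49 and 2.43, so both stayed marked in adult cells. Atf3, a stress-induced factor, was lower than in endoderm in hepatocytes but higher in beta cells (1.15, 0.364 and 2.61). Elk1, an X-linked gene, was the 1 gene called higher in hepatocytes (0.790, 2.67 and 0.388). The count of lower genes in beta cells was 6 after division by the most frequent value and 6 with the larger pseudocount. In hepatocytes the count was 9 and 5. Over all 24466 genes, the lower count in beta cells went from 3694 to 2354 and 1676 under these 2 settings. In hepatocytes it went from 3266 to 1901 and 1208.

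**Figure D3:**
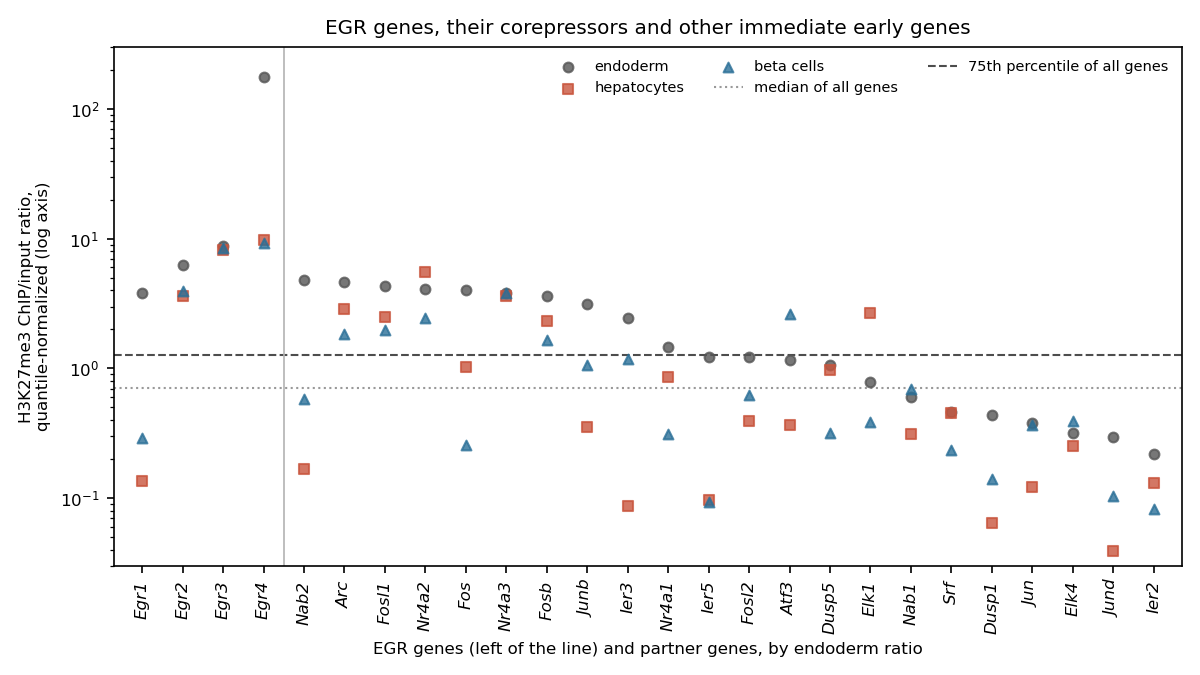
The H3K27me3 ratio (log axis) is plotted for the 4 EGR genes and, right of the line, for the 22 partner and immediate early genes ordered by their endoderm ratio, with 1 pooled point per cell type. Egr1, Nab2, Junb and Ier5 have adult points below the endoderm point by more than 2-fold, while Egr3 and Nr4a3 have 3 nearly equal points.

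KLF genes were mostly unmarked, and 5 of the 17, or 29.4%, were called lower than endoderm in each adult cell type. Over all genes the shares were 13.3% in hepatocytes and 15.1% in beta cells. In a list of 20 housekeeping genes, 4 were lower in hepatocytes and 6 in beta cells, 20% and 30%. The 17 genes had median ratios of 0.565 in endoderm against 0.435 in hepatocytes and 0.512 in beta cells, under the overall median of 0.711. Of the 17, 12 were marked in none, or 70.6%, beside 56.0% of all genes, and 2 throughout, or 11.8%, beside 8.66%. Of the 36 calls made over all members and comparisons, 16 concerned KLF genes, which are 17 of the 53 members. In no comparison were 7 of the 17 called, beside 55.0% of all genes. The genes lower in hepatocytes than in endoderm were Klf2, Klf6, Klf9, Klf13 and Klf15, and 0 were higher, beside 13.3% and 12.8% of all genes. The genes lower in beta cells were Klf2, Klf5, Klf8, Klf9 and Klf14, and Klf17 was higher, beside 15.1% and 14.1%. Klf2 and Klf9 stand in both lists, and Klf14 was still marked in beta cells. The calls of Klf6 (-1.03) and Klf13 (-1.06) lay at the threshold, and Klf8 is X-linked, as described below.

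Klf2 and Klf9 were lower in both adult cell types. Klf2, a factor of endothelium under flow and of resting lymphocytes, stood at percentile 99.3 in endoderm and 63.5 in hepatocytes. Its ratios were 8.83 in endoderm against 0.961 in hepatocytes and 1.73 in beta cells, with differences of -3.11 and -2.30. In beta cells it was still marked, at percentile 85.1, and the call there ended on ranks. Of 7 endothelial markers, 0 were called in any comparison, and their median ratios were 0.943, 1.08 and 1.30. Klf9, which responds to thyroid hormone and glucocorticoids, had 1.06, 0.348 and 0.266, with differences of -1.43 and -1.74 that ended with the larger pseudocount (-0.74 and -0.85).

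Klf15, Klf6 and Klf13 were called lower in hepatocytes, and not in beta cells, than in endoderm. Klf15 and Klf6 were also lower in hepatocytes than in beta cells, while Klf13 was low in both, at percentiles 4.83 and 16.1, with no call between them (-0.92). Klf15 promotes amino acid breakdown and gluconeogenesis in fasting liver. It had ratios of 0.514 in endoderm against 0.103 in hepatocytes and 0.753 in beta cells, and its hepatocyte ratio was the lowest of the 53 genes in any cell type. The difference between hepatocytes and beta cells was -2.24, and -0.85 with the larger pseudocount. Klf6, a widely expressed factor induced in injured liver, had 0.450, 0.185 and 0.761, a difference of -1.70 between the adult cell types that likewise ended with the larger pseudocount (-0.72). Its difference from endoderm (-1.03) and that of Klf13 (-1.06; ratios of 0.434, 0.171 and 0.387) lay at the threshold, and both calls ended under each of the 4 alternatives named for Egr1. The endoderm ratios of these 3 genes already lay under the overall median, so these differences lie within the unmarked range. On ranks the calls of Klf6 and Klf13 against endoderm had to end. Their endoderm percentiles of 23.7 and 21.6 leave no room for a fall of 25 points.

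The promoters of Klf2, Klf9 and Klf15 are given in the same way as those above, because Klf2 and Klf9 were called lower in either adult cell type and Klf15 had the lowest ratio.
Klf2 (chr8:72318862-72319061, plus strand): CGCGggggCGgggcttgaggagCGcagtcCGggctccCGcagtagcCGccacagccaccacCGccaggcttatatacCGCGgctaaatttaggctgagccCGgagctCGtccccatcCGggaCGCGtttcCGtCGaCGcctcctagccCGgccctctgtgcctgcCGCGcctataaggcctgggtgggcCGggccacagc
Klf9 (chr19:23141026-23141225, plus strand): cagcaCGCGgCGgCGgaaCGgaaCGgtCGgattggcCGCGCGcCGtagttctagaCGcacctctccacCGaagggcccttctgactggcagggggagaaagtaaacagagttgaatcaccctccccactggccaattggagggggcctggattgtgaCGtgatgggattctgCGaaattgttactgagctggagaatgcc
Klf15 (chr6:90462376-90462575, plus strand): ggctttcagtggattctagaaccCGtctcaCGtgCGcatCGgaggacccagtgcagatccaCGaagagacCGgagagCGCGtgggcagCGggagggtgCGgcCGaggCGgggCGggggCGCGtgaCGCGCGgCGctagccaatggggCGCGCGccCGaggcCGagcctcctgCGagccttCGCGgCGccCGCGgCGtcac
The 300-base windows held 32 CG dinucleotides in Klf2, 28 in Klf9 and 47 in Klf15, all above the median of 15. The GC box occurred 2 times in Klf2, 1 time in Klf15 and not in Klf9. The CACCC box, searched as CACCC on both strands, occurred 1 time in each of the 3, and in 58.9% of all windows. Klf9 and Klf15 were unmarked in all 3 cell types and Klf2 was marked in endoderm and beta cells, while all 3 windows held more CG dinucleotides than the median. Other called KLF genes did not all do so: Klf13 held 32 and Klf6 23, but Klf8 held 8 and Klf17 held 6.

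Klf5 and Klf8 were low in beta cells. Klf5, a factor of proliferating epithelium in gut and skin, had ratios of 1.38 in endoderm against 1.90 in hepatocytes and 0.318 in beta cells. The difference was -1.90 from endoderm and 2.34 between hepatocytes and beta cells, and neither call ended under any alternative. Klf8, a repressor encoded on the X chromosome, had 1.33, 1.98 and 0.533. Its difference was -1.21 between beta cells and endoderm and 1.77 between hepatocytes and beta cells. The first call ended after division by the most frequent value (-0.80) and with the larger pseudocount (-0.71), and the second under no alternative. X-linked genes as a group had low beta cell values. The 741 genes with a promoter on the X had median ratios of 1.78, 2.09 and 0.734. Of them, 55.6% were called lower than endoderm in beta cells, against 12.6% of 16669 genes with a promoter elsewhere. Between hepatocytes and beta cells, 69.1% of them were called higher in hepatocytes, against 9.59% of those elsewhere. The neighbours of Klf8 showed the same, with 1.62, 1.68 and 0.287 for Rragb and 2.70, 4.13 and 0.233 for Ubqln2. The part of the chromosome in the result for Klf8 was not tested.

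The KLF genes marked throughout were Klf14 and Klf4. Klf14, an imprinted gene without introns, had ratios of 11.5 in endoderm against 7.45 in hepatocytes and 3.73 in beta cells. It was called lower in beta cells (-1.60), but its percentile stayed at 96.1. Klf4, a reprogramming factor that also acts in skin barrier and gut, had 2.99, 5.41 and 2.43. It was higher in hepatocytes than in beta cells by 1.13. That call ended with the larger pseudocount (0.96) and on ranks (6.04 percentile points). On ranks it had to end, since a beta cell percentile of 92.0 leaves no room for a rise of 25 points. Klf17, a gene of mouse germ cells and early embryos, had 0.530, 0.683 and 1.18, below the 75th percentile throughout, and its call (1.05) ended with the larger pseudocount (0.61). The remaining KLF genes, Klf1, Klf3, Klf7, Klf10, Klf11, Klf12 and Klf16, were called in no comparison and ranged from 0.262 to 0.900 over the 3 cell types. Klf1, the erythroid factor, was the highest of them in endoderm (0.900, 0.435 and 0.502), and Klf10, a gene induced by TGF-beta, was the lowest in beta cells (0.516, 0.411 and 0.262). Klf11, linked to beta cell function, had 0.371, 0.263 and 0.499.

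SALL genes each had their own pattern. Sall4, a factor of pluripotent cells and fetal liver, was marked only in hepatocytes, with ratios of 0.626 in endoderm against 1.79 in hepatocytes and 0.470 in beta cells. It was higher in hepatocytes than in endoderm by 1.41 and than in beta cells by 1.78, and the first of these calls ended with the larger pseudocount (0.90). Sall2 had 0.776, 3.30 and 1.29, and its difference of 2.00 between hepatocytes and endoderm was the largest positive one of that comparison among the 53 genes. Sall1, a kidney and neural factor, went the other way: it was marked in beta cells alone, with 0.478, 0.391 and 2.29. Its differences were 2.11 between beta cells and endoderm and -2.35 between hepatocytes and beta cells. No alternative ended the calls for Sall1, the call for Sall2 against endoderm or that for Sall4 against beta cells. Sall3 was marked throughout (2.21, 3.26 and 3.99). The neighbours of Sall1, Cyld and Tox3, had beta cell ratios of 0.553 and 0.331.

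GLI and GLIS genes, whose zinc fingers are close relatives of those of ZIC, had median ratios between 0.572 and 1.46, while the 4 ZIC genes above had ratios between 2.86 and 8.51. Gli1, a target and amplifier of hedgehog signalling, was the 1 gene of these 6 marked throughout, with ratios of 2.10 in endoderm against 2.85 in hepatocytes and 3.75 in beta cells. Gli2, the main activator, had 0.981, 1.18 and 1.46. Gli3, the main repressor, had 0.913, 1.22 and 0.804. No GLI gene was called in any comparison. Glis3 supports insulin gene transcription in beta cells. It had 0.608, 1.26 and 0.469, and was higher in hepatocytes than in beta cells by 1.30, a call that ended with the larger pseudocount (0.74). Glis2, a kidney factor, had 0.431, 1.01 and 0.572 and was higher in hepatocytes than in endoderm by 1.11, or 0.59 with the larger pseudocount. Glis1 had 0.885, 1.55 and 1.35. All 3 GLIS genes were highest in hepatocytes.

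The other genes of the hedgehog pathway were taken from a list of 16. In hepatocytes 0 were higher and 2 lower than in endoderm, beside 12.8% and 13.3% of all genes. In beta cells 1 was higher and 1 lower, beside 14.1% and 15.1%. Between hepatocytes and beta cells 1 was higher and 2 lower, beside 13.1% and 12.5% of all genes. With each column divided by its most frequent value, the beta cell count against endoderm became 6 higher and 0 lower. The same scaling took the counts over all 24466 genes from 3457 higher and 3694 lower to 5728 and 2354. The ligands Shh (3.68 in endoderm against 4.30 in hepatocytes and 6.66 in beta cells) and Dhh (6.16, 4.05 and 3.91) were marked throughout. Ihh was marked in endoderm and beta cells but not in hepatocytes (5.06, 0.926 and 7.77), a difference of -2.97 between the adult cell types. The coreceptor Gas1 showed the widest difference of the list, -3.68, with 1.92, 0.615 and 8.75. The receptor Ptch1 (0.457, 0.371 and 0.525) and the transducers Smo (0.544, 0.680 and 1.10) and Sufu (0.418, 0.551 and 0.790) were unmarked. Of the other genes described, Kif7 was marked throughout (1.30, 1.90 and 1.97), and Hhip, Boc, Cdon, Disp1, Gpr161, Stk36 and Scube2 ranged from 0.462 to 1.94.

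The blood factors ranged from strongly marked to unmarked. Gata2, a factor of blood stem cells, had ratios of 4.24 in endoderm against 5.62 in hepatocytes and 6.02 in beta cells. Gata3, a factor of T cells and several epithelia, had 1.32, 1.32 and 2.95, and was higher in beta cells by 1.11 than in endoderm and by the same amount than in hepatocytes. Both calls ended with the larger pseudocount (0.85 against endoderm) and on ranks (17.5 percentile points). In endoderm and hepatocytes Gata3 stood just above the 75th percentile, at 76.8 and 76.9. A rise of 25 percentile points, the rank threshold, is not possible from there, so both calls had to end on ranks. Gata1, the erythroid factor, had 2.53, 2.55 and 1.10, and was called lowest in beta cells, with a difference of -1.15 between beta cells and endoderm and of 1.16 between hepatocytes and beta cells. The call against endoderm ended after division by the most frequent value (-0.73), with the larger pseudocount (-0.84) and on ranks (-23.5 percentile points). That between hepatocytes and beta cells ended with the larger pseudocount (0.85) and on ranks (23.6 percentile points). Gata1 is X-linked like Klf8, and its neighbours Hdac6 (1.78, 2.87 and 0.665) and Glod5 (1.33, 1.88 and 0.582) were low in beta cells too.

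Ikzf1 (Ikaros), a factor of all lymphoid lineages, was marked throughout, with ratios of 1.45, 1.71 and 1.78. Ikzf3 (Aiolos), a B cell factor, had 1.67, 1.71 and 1.13. Ikzf2 (Helios), a factor of regulatory T cells, had 0.566, 1.01 and 0.438, and was higher in hepatocytes than in beta cells by 1.09, or 0.59 with the larger pseudocount. Ikzf4 (0.861, 0.460 and 0.683) and Ikzf5 (0.604, 0.549 and 0.464) were unmarked. The family thus overlapped the range of unmarked KLF genes. Of 20 partners of GATA and IKZF factors in blood, 1 was lower and 0 higher in hepatocytes than in endoderm, beside 13.3% and 12.8% of all genes. In beta cells 3 were higher and 0 lower, beside 14.1% and 15.1%, and 7 were higher after division by the most frequent value. Between hepatocytes and beta cells 6 were lower and 0 higher, beside 12.5% and 13.1% of all genes. Lyl1, a partner of GATA factors in blood stem cells, had 4.54, 0.799 and 3.77, and Nfe2, an erythroid factor, 0.541, 0.288 and 1.04. Tal1 (6.02, 4.43 and 4.79) and Gfi1 (5.50, 5.997 and 5.98) were marked throughout.

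Counted over all 53 genes, differences between cell types were about as frequent as over the whole table. In hepatocytes 3 of 53 were higher than in endoderm and 8 lower, 5.66% and 15.1%, beside 12.8% and 13.3% of all genes. In beta cells 4 were higher and 9 lower, 7.55% and 17.0%, beside 14.1% and 15.1%. Between hepatocytes and beta cells 8 were higher and 4 lower, 15.1% and 7.55%, beside 13.1% and 12.5%. Without X-linked members, 6 of 50 were higher and 4 lower between these cell types, 12% and 8%. In beta cells against endoderm 4 were then higher and 7 lower, 8% and 14%. The shares of lower genes against endoderm were thus near the background and those of higher genes below it. After each column was divided by its most frequent value, the split became 10 higher and 6 lower in hepatocytes and 12 higher and 7 lower in beta cells. Under that scaling 62.5% and 63.2% of the calls were higher, in place of 27.3% and 30.8%, while for all genes the share went from 48.9% and 48.3% to 73.4% and 70.9%.

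The 2 comparisons with endoderm share its values, so their calls are given side by side. Egr1, Egr4, Klf2, Klf9 and Sp9 were lower in both adult cell types, 5 of 53 beside 6% of all genes, and 0 were higher in both, beside 7.02%. In opposite directions 0 were called, beside 1.55% of all genes. In all, 31 of 53 were called in no comparison, or 58.5%, beside 55.0% of all genes. Of the 8 alternatives, 4 could end a call: the larger pseudocount, ranks, division by the most frequent value and the threshold of 1.5. Of the 36 calls, 10 ended under none of these 4. Egr1, Klf5 and Sall1 held such calls in 2 comparisons each. Klf2 and Sall2 held them between hepatocytes and endoderm, and Klf8 and Sall4 between the adult cell types. The Klf8 call is one that 69.1% of 741 genes with a promoter on the X also had.

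**Figure D4:**
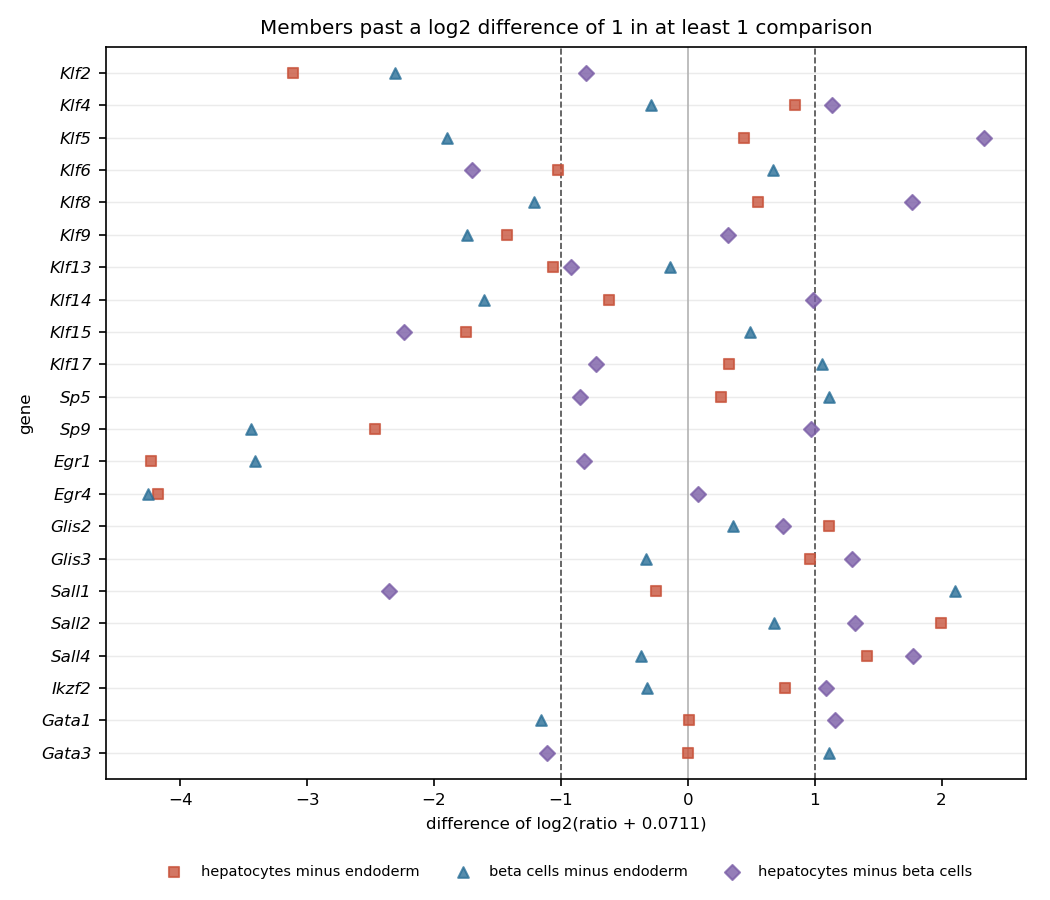
The difference of log2(ratio + 0.0711) is plotted for the 22 genes past a difference of 1 in at least 1 comparison, with 1 point per comparison and dashed lines at -1 and 1. Egr1, Egr4, Sp9, Klf2 and Klf9 have both endoderm comparisons left of -1, while Klf5, Klf15, Sall1 and Sall4 have their widest point between hepatocytes and beta cells.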

How the data were processed

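H3K27me3 ChIP-seq ratios of endoderm, hepatocytes and beta cells were analysed, and the H3K9me3 libraries of the same study were not analysed here. The values are linear ratios of ChIP to input that the authors quantile-normalized, per the file headers of the deposited table. The submitters' processing notes name Bowtie2 2.1.0, bedtools and the build mm9. The measured region, any added constant and the way in which 2 ChIP and 2 input libraries became 1 value are unknown here, as is read depth. The planned fit on replicate values therefore gave way to a description with no p-values, and the precision of a ratio is unknown.

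Genes were matched by symbol with Python 3.11.15, pandas 2.3.3 and numpy 2.4.6. The calculation was tested on simulated data. Members, gene lists and settings were chosen with earlier results of these data known, so no count over them is independent support. Named genes are the members, their neighbours, the hedgehog list and, from each other list, up to 4 genes with the widest difference per comparison and exceptions to its direction. Tal1, Gfi1, Nr4a2 and Nr4a3 were named after their values were seen. Of the members and of the hedgehog list, 1 gene each is counted and not reported here by name. Promoter windows and gene order came from RefSeq (GRCm38.p6), which is not the build of the values. Alternatives were other pseudocounts, level filters, ranks, thresholds, a division by each column's most frequent value, and leaving out X-linked genes.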

Additional observations from a re-analysis of the deposited data

Results flagged for a closer look

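Of 203 genes examined, 5 moved in opposite directions in hepatocytes and in beta cells relative to endoderm, by at least 1 on the log2 scale each way, and 0 of them were among the 53 zinc finger genes. Of all 24466 genes, 378 did so, or 1.55%. The difference was not tested, since each cell type has 1 pooled value, and both comparisons use the same endoderm value. Atf3, from the immediate early list, differed by -1.49 in hepatocytes and 1.13 in beta cells. Gas1, from the hedgehog list, differed by -1.53 and 2.15. Among the marker genes, Fgg, which encodes a fibrinogen chain made in liver, differed by -2.41 and 1.38, and Chga, which encodes an endocrine granule protein, by 1.66 and -1.40. Pgk1, a glycolysis gene on the X chromosome, differed by 1.07 and -1.04.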

How the results depend on the processing

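No paired analysis was possible because the table holds 1 pooled value per cell type, and for the same reason no replicate could be left out. None of the 36 member calls changed sign under any alternative, and none could. Pseudocounts, thresholds, filters and ranks keep which of 2 cell types is higher. Division by the most frequent value shifts a difference by less than 1. Counts of members moved as follows, always higher before lower. With a pseudocount 10 times larger, 1 and 4 of the genes were called in hepatocytes against endoderm, 1 was higher in beta cells against endoderm, and 4 and 1 were called between hepatocytes and beta cells; 17 of the 36 calls were kept. Among the 34 members above the median level, 4 were lower in hepatocytes against endoderm and 2 lower than in beta cells. Rank percentiles gave 5 higher in hepatocytes against endoderm and kept 21 calls. Those of Egr4 and Sp9, whose rank differences lay between -0.25 and -2.13 points, ended. Some calls had to end, as their starting percentile left no room for a change of 25 points. These were the calls of Gata3, Klf4 and Sp5 and those of Klf6 and Klf13 against endoderm. The call of Sall2 between hepatocytes and beta cells, at percentile 75.7 in beta cells, was another. Division by the most frequent value gave 10 higher in hepatocytes and 12 higher in beta cells. A threshold of 1.5 gave 1 and 5 in hepatocytes, 1 higher in beta cells, and 3 higher in hepatocytes than in beta cells. A threshold of 0.5 gave 12 and 14, 14 and 16, and 16 and 11 in the 3 comparisons. The smaller pseudocount and the threshold of 0.5 kept all 36 calls by construction. Leaving out X-linked members and the level filter likewise could not end the calls they reached. The causes were not tested, beyond what each setting changes by construction. Division by the most frequent value moved the family medians against endoderm across 0 for KLF and IKZF genes in beta cells (from -0.30 to 0.09 and from -0.32 to 0.06) and for SP genes (from -0.19 to 0.23). The median of all genes in that comparison moved from -0.01 to 0.38, above each of these family medians.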
